A study of Rattus norvegicus with 8 samples.

Results

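Pulmonary surfactant is the mixture of phospholipids and proteins that lines the alveoli and lowers surface tension. It is made, stored in lamellar bodies and secreted by the type 2 alveolar cell, which also renews the flat type 1 cells of the alveolar wall. Many lung adenocarcinomas keep parts of the type 2 program, and NKX2-1 and napsin A are used in pathology to recognise them.

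The genes followed here were 10 genes of surfactant and of the type 2 cell, *Sftpa1*, *Sftpb*, *Sftpc*, *Sftpd*, *Napsa*, *Lamp3*, *Slc34a2*, *Lpcat1*, *Etv5* and *Nkx2-1*, chosen by name, out of 13888 genes to which the mRNA probes of the array could be matched. Each had 1 probe, found through its RefSeq accession, and each probe had 1 spot. The samples came from male F344 rats, an inbred strain, and were taken at week 95. NNK, a carcinogenic nitrosamine of tobacco smoke, had been given to the rats behind all 6 lung samples, which were 3 lung tumors, described in the methods as moderately differentiated adenocarcinoma, and 3 matched normal lung tissues. There was no lung from untreated rats among the arrays analysed here, so a change that NNK made in both tissues cannot be seen. The 2 blood samples were the clots of whole blood from the control group and from the NNK group, 1 of each.

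Before the results, 3 features of the arrays need stating. The 3 normal lung arrays differed from each other by less than the noise between spots of the same probe, with a ratio of observed to expected squared difference of 0.467 to 0.787, and so did tumor arrays 2 and 3, at 0.466. Tumor array 1 differed from the other tumor arrays with ratios of 3.03 to 3.36, and normal from tumor arrays with ratios of 8.35 to 12.8. Arrays that agree within sampling noise may hold the same RNA. The fold changes of the 10 genes and the medians of the gene lists were therefore also computed with the near-identical arrays counted as 1 sample. This leaves 1 normal and 2 tumor samples. Nothing in the labels says that the 3 samples of a group came from separate rats, and the p values measure only the spread between these arrays. In addition, the normal arrays and tumor array 1 shared 1 scan, and tumor arrays 2 and 3 shared another. Arrays of 1 scan were taken as 1 slide, which is an inference because the slide is not named otherwise. The slide and the sample cannot be told apart within the tumor group. Lastly, outlier marks of the scanner software fell on 4.92% to 8.62% of the spots above background on the normal arrays and on 15.9% to 25.3% on the tumor arrays. Of the genes followed here only *Sftpc* lost spots to these marks.

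The tissue was labelled only as lung tissue or lung cancer tissue. On all 6 lung arrays the 10 genes gave signal well above background, *Sftpc*, which defines the type 2 cell, among them. Levels below are log2 processed signals after quantile normalization over the 6 lung arrays. A gene is said to rise or fall where the limma fit over all 12471 probes tested gave an adjusted p of at most 0.05, and is called where the change was also at least 2-fold. A level of 1 probe is not comparable with that of another. In pieces of tissue, fewer type 2 cells and less RNA per type 2 cell cannot be told apart.

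Of the 9 genes tested with marked spots left out, 6 rose and 2 fell in lung tumor, while 33.7% of all probes rose and 31.4% fell. Only *Lpcat1* was called higher and 0 were called lower, with no log2 fold change below -0.30, against 13.5% and 15.5% of all probes. *Sftpc*, fitted with its marked spots kept, was also past 2-fold, where 13.5% of all probes fitted that way were called higher. The median log2 fold change was 0.38 for the 9 genes tested and 0.41 for all 10 with marked spots kept, against 0.07 for all probes and -0.001 for the mRNA probes. The tumor and normal arrays did not overlap for 9 of the 10 genes, the exception being *Etv5*, and they did not overlap for 73.0% of the 15803 probes with a value when marked spots were kept.

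**Figure D1:**
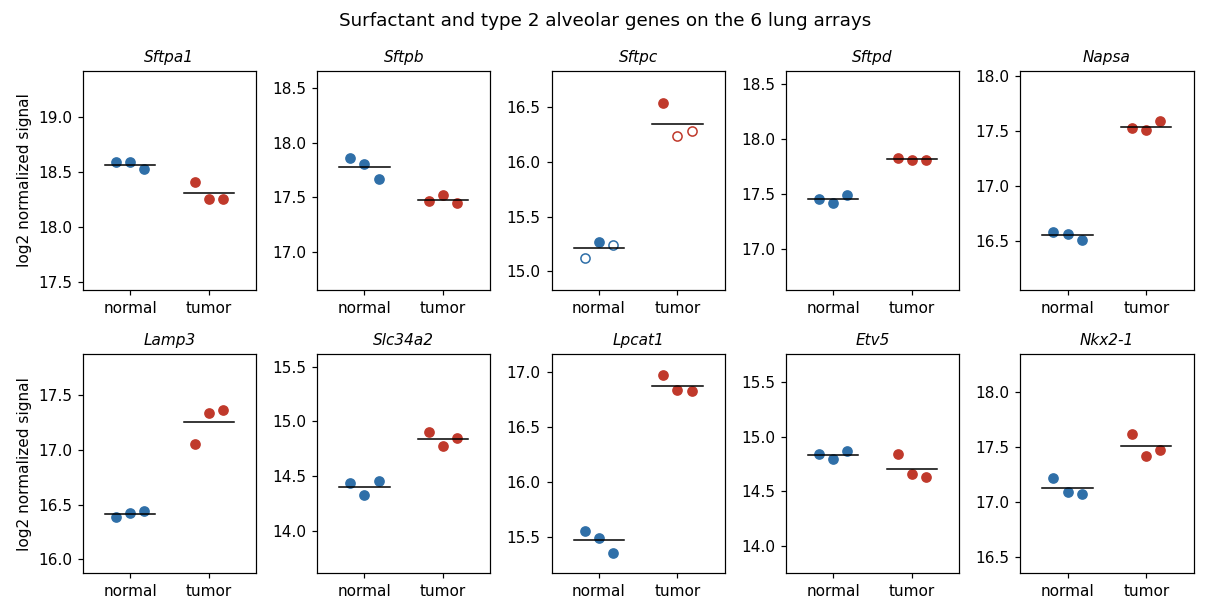
Log2 normalized signal of each of the 10 genes on the 3 normal lung arrays (blue) and the 3 lung tumor arrays (red), 1 point per array in the order of the array numbers, with the group mean as a line and open points for spots marked as outliers. Every panel spans the same distance on the log2 axis, and the separation is widest for *Lpcat1*, *Sftpc* and *Napsa*, while *Sftpa1* and *Sftpb* lie lower in the tumors and *Etv5* overlaps.

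The transcripts of the surfactant proteins did not all change in the same direction, though both falls were small and depended on the processing. *Sftpa1* encodes surfactant protein A, a collectin that binds microbes and surfactant lipid in the alveolus. Its level was 18.59, 18.59 and 18.52 on normal lung arrays 1 to 3 and 18.41, 18.26 and 18.26 on lung tumor arrays 1 to 3. All tumor arrays lay below all normal arrays, and the log2 fold change was -0.26 (SE 0.067, adjusted p = 0.018), which is 1.20-fold lower. *Sftpa1* was among the brightest probes of every lung array, with 1 or 2 probes brighter on the normal arrays and 3 to 7 on the tumor arrays. Before normalization its signal ran from 339348 to 367647 on the normal and from 316969 to 365394 on the tumor arrays, so that the groups overlapped. Quantile normalization sets a value by rank. Normal arrays 1 and 2 thus received the same value from signals of 339348 and 367647, and tumor arrays 2 and 3 from 316969 and 335286. The gap between the groups and the SE are those of these rank-based values. With a 75th percentile shift in place of quantile normalization the change was -0.08 (adjusted p = 0.379), and it missed the threshold under 10 of 19 alternatives, among them the left-out normal array 1 or 2 and tumor array 2 or 3.

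*Sftpb* encodes surfactant protein B, the hydrophobic protein without which lamellar bodies and the surfactant film do not form. Its level was 17.86, 17.81 and 17.67 on the normal arrays and 17.47, 17.52 and 17.45 on the tumor arrays. The tumor arrays again lay below the normal ones, and the gene fell by 0.30 on the log2 scale (SE 0.070, adjusted p = 0.0133). The processed signals, 196647 to 225207 in normal lung and 188673 to 196293 in tumor, did not overlap but nearly met. Leaving out normal array 2 gave -0.28 (adjusted p = 0.0523), and a slide block gave -0.31 (adjusted p = 0.0502).

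*Sftpc* encodes surfactant protein C, the other hydrophobic surfactant protein and the transcript most restricted to type 2 cells. Its spot was marked as non-uniform on normal arrays 1 and 3 and on tumor arrays 2 and 3, so with marked spots left out too few arrays remained, and the values here keep them. Its level was 15.12, 15.27 and 15.24 on the normal arrays and 16.54, 16.23 and 16.28 on the tumor arrays. The groups were far apart, also between the 2 unmarked spots, on normal array 2 and tumor array 1. The log2 fold change was 1.14 (SE 0.10, adjusted p = 0.000258), a rise of 2.20-fold, and it was 1.32 under a slide block.

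*Sftpd* encodes surfactant protein D, another collectin of the alveolus, which is also secreted by airway cells. Its level was 17.45, 17.42 and 17.49 in normal lung and 17.83, 17.81 and 17.81 in tumor. Here too tumor arrays 2 and 3 received the same rank-based value, from processed signals of 234772 and 244467. Every tumor array was above every normal array, and the rise was 0.36 on the log2 scale, or 1.29-fold (SE 0.049, adjusted p = 0.00153). So, of the genes for the collectins, *Sftpa1* fell and *Sftpd* rose, and of those for the hydrophobic proteins, *Sftpb* fell and *Sftpc* rose with its marked spots kept. The differences between these genes' fold changes were not tested.

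Genes for the processing and storage of surfactant rose. *Napsa* encodes napsin A, an aspartic protease that takes part in the maturation of surfactant protein B. Its level was 16.58, 16.56 and 16.51 in normal lung and 17.52, 17.51 and 17.59 in tumor. The arrays within each group were close together and the groups did not overlap. The rise was 0.99 on the log2 scale, or 1.98-fold (SE 0.054, adjusted p = 4.74e-05), just under the 2-fold limit. Over all 8 arrays normalized together it was 1.34, and in the authors' normalized values 1.40.

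*Lamp3* encodes a membrane protein of the lysosome and of the lamellar body, and is expressed by mature dendritic cells as well. Its level was 16.39, 16.42 and 16.45 in normal lung, and 17.05, 17.34 and 17.36 in tumor. Tumor array 1 was lower than the other tumor arrays and still above the normal ones. The rise was 0.83 on the log2 scale, or 1.78-fold (SE 0.097, adjusted p = 0.000903), and 0.64 under a slide block, which rests on tumor array 1 alone against normal lung. It passed 2-fold over all 8 arrays normalized together, at 1.08, and in the authors' normalized values, at 1.15.

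*Slc34a2* encodes the sodium-phosphate cotransporter NaPi-IIb, which takes up the phosphate left from surfactant phospholipid. Its level was 14.43, 14.33 and 14.45 in normal lung and 14.90, 14.78 and 14.84 in tumor. The groups did not overlap, and the rise was 0.44 on the log2 scale, or 1.35-fold (SE 0.065, adjusted p = 0.0023).

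*Lpcat1* encodes lysophosphatidylcholine acyltransferase 1, which makes the dipalmitoyl phosphatidylcholine of surfactant. Its level was 15.56, 15.49 and 15.36 in normal lung and 16.98, 16.84 and 16.82 in tumor. This was the widest gap among the 10 genes. The rise was 1.41 on the log2 scale, or 2.66-fold (SE 0.080, adjusted p = 5.54e-05), and it stayed between 1.36 and 1.80 and past 2-fold and the adjusted threshold under all 19 alternatives.

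Of the transcription factors of the type 2 cell, 1 rose and the other did not pass the test. *Nkx2-1* encodes the homeodomain factor TTF-1, which activates the surfactant protein genes. Its level was 17.22, 17.09 and 17.07 in normal lung and 17.62, 17.42 and 17.48 in tumor. The groups did not overlap, and the rise was 0.38 on the log2 scale, or 1.30-fold (SE 0.080, adjusted p = 0.00885). The same probe was nearly as bright in control blood as in normal lung, at 16.60 against 16.79 when all 8 arrays were normalized together. Whether its signal in lung is that of *Nkx2-1* alone was not tested. Over the 6 lung arrays, the 5 mRNA probes with the pattern most like that of *Nkx2-1* among 6700 compared were those of *Kti12*, *Zfp637*, *Ldha*, *Sod2* and *G6pc3*, with Pearson's r of 0.994 to 0.997. These 6 arrays share 1 difference between 2 tissues, so such values describe the arrays only.

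*Etv5* encodes an ETS factor that maintains type 2 cells downstream of RAS and FGF signalling. Its level was 14.84, 14.79 and 14.87 in normal lung and 14.84, 14.65 and 14.63 in tumor. Tumor array 1 lay among the normal arrays while tumor arrays 2 and 3 lay below them. The difference did not pass the test, at -0.12 on the log2 scale (SE 0.074, adjusted p = 0.19). Without tumor array 1 it did, at -0.19 (adjusted p = 0.0194), and under a slide block it was 0.0035 (adjusted p = 0.962).

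Tumor array 1 was above tumor arrays 2 and 3 for 7 of the 10 genes and below them only for *Lamp3*. With the near-identical arrays counted once, the direction of every one of the 10 fold changes was kept, but only *Lpcat1* passed the threshold (adjusted p = 0.047). *Sftpc* then had an adjusted p of 0.0671 and *Napsa* of 0.0706, and the other genes of 0.136 to 0.773.

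**Figure D2:**
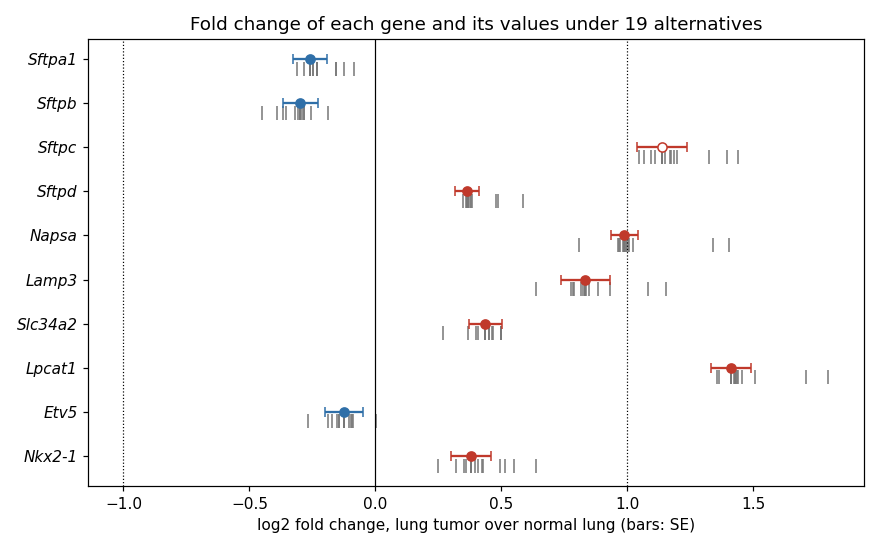
Log2 fold change of lung tumor over normal lung for each gene (points, with bars for the SE; red above and blue below 0, open for *Sftpc* fitted with marked spots kept) and the values under 19 alternatives (grey ticks), with dotted lines at 2-fold. *Lpcat1* lies past 2-fold under every alternative, *Napsa* and *Lamp3* lie on both sides of it, and *Etv5* lies from -0.27 to 0.00.

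The regions upstream of the start are shown for the genes that fell, *Sftpa1* and *Sftpb*, and for the largest rises with a sequence at hand, *Lpcat1* and *Lamp3*, as genes of the same cell that moved in opposite directions. RefSeq sequence of the build GRCr8 was at hand for 7 of the 10 genes, not for *Sftpc*, *Sftpd* and *Napsa*. The 250 bases before the start are printed from 5′ to 3′ on the strand of the gene, at chr16:17042014-17042263 (plus strand) for *Sftpa1*, chr4:105917338-105917587 (plus) for *Sftpb*, chr11:94697772-94698021 (plus) for *Lamp3* and chr1:31644947-31645196 (minus) for *Lpcat1*. Capitals mark matches, on either strand, to CAAGTG or CTCAAG (cores of the kind NKX2-1 binds, which share letters and so can overlap), TGTTTAC or TGTTTGC (forkhead factors) and CCGGAA (ETS factors).
Sftpa1: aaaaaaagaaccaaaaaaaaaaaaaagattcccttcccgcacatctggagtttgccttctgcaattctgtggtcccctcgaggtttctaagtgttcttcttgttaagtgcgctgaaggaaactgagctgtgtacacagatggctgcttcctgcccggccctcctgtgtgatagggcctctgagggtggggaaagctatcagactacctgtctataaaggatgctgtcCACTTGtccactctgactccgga
Sftpb: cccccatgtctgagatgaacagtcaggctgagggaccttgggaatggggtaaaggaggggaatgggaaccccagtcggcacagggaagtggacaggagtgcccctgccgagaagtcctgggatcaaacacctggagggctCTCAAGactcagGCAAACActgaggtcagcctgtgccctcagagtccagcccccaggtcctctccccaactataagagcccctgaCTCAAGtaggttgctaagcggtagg
Lamp3: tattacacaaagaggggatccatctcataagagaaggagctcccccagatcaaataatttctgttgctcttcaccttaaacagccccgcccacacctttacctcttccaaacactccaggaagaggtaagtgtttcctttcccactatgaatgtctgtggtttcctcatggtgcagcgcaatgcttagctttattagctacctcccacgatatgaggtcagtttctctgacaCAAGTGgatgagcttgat
Lpcat1: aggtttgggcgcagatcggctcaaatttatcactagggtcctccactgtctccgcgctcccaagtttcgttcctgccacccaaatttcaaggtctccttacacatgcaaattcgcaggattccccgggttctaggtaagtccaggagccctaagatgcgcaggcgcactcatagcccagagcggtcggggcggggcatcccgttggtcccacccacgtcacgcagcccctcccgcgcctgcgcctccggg

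*Sftpb* held 2 CTCAAG matches, beginning 110 and 25 bases before the start, with a TGTTTGC match on the other strand at 98. *Sftpa1* held a CAAGTG match on the opposite strand at 23 bases, and *Lamp3* held CAAGTG on the printed strand at 18 bases. *Lpcat1* held none of the 5 motifs. Of the 3 genes not printed, *Nkx2-1* held CTCAAG and *Etv5* TGTTTAC, each beginning 177 bases before the start, and *Slc34a2* held none. Of the 33469 windows of the same length, CAAGTG was in 11.7%, CTCAAG in 13.3%, TGTTTAC in 3.21%, TGTTTGC in 4.16% and CCGGAA in 12.6%. A match describes the sequence, and binding was not measured. The genes with a CAAGTG or CTCAAG match included both that fell and 2 that rose.

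Other genes of the type 2 cell were mostly higher in tumor where they passed the test. The counts called in this and the further lists stand against 13.5% of all probes called higher and 15.5% called lower. Of 20 such genes in a second list, 15 had a probe and 12 were tested, of which 6 were called higher and 1 lower, and the median log2 fold change was 0.65. With marked spots kept, 8 of 15 were called higher and 2 lower, the added fall being that of *Acoxl*, a peroxisomal oxidase-like gene, at -1.87 (adjusted p = 0.000696), and the median was 1.06. Without *Cebpa*, which passed the filter on dim probes only through the tumor arrays, 5 of 11 were called higher and 1 lower and the median was 0.30. The largest rises were those of *Egfl6*, a secreted protein, at 2.53 (SE 0.22, adjusted p = 0.000294), and of *Cldn3*, a tight junction claudin, at 2.01 (SE 0.053, adjusted p = 6.08e-06). *Cebpa*, a transcription factor of type 2 cell maturation, was not well above background on any normal array and was on all 3 tumor arrays, at least 2.16-fold higher. The falls were those of *Adgrf5*, an adhesion receptor that limits the surfactant pool and is also made by endothelium, at -2.51 (SE 0.24, adjusted p = 0.00038), and of *Lgi3* at -0.66 (adjusted p = 0.000317). *Lyz2*, shared with macrophages, did not pass the test (0.30, adjusted p = 0.0509).

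Of 22 genes of surfactant lipid synthesis and its regulation, 17 had a probe and 13 were tested, with a median log2 fold change of 0.16. Called higher were 2 and lower 0, against 13.5% and 15.5% of all probes. The 2 called were *Pemt*, which methylates phosphatidylethanolamine to phosphatidylcholine, at 1.29 (adjusted p = 2.84e-05), and *Chka*, choline kinase alpha at the head of the other route, at 1.27 (adjusted p = 0.000202). *Pla2g4a*, cytosolic phospholipase A2, rose by 0.89 (adjusted p = 0.000128). *Pcyt1a*, the enzyme that sets the pace of the choline route, had a value only with marked spots kept, 0.51 (adjusted p = 0.000944). *Scd*, a fatty acid desaturase, did not pass the test (0.03, adjusted p = 0.774).

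Of 12 genes that take up and break down surfactant, 9 had a probe. Of 6 tested, 1 was called higher and 0 lower, against 13.5% and 15.5% of all probes. The gene called was *Spi1*, the factor PU.1 of alveolar macrophages, at 1.53 (adjusted p = 8.83e-06). *Lipa*, lysosomal acid lipase, rose by 0.88 (adjusted p = 0.000513) and *Ctss*, cathepsin S, by 0.75 (adjusted p = 0.000172). *Marco*, a scavenger receptor of alveolar macrophages, was not well above background in any lung sample.

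The transcription factors of lung epithelium moved both ways. Of 16, 14 had a probe and 8 were tested, with 4 called higher and 2 lower and a median log2 fold change of 1.25. The epithelial ETS factors *Elf3* and *Elf5* were higher by 2.44 (adjusted p = 6.23e-06) and 2.37 (adjusted p = 2.04e-05), and *Tfcp2l1*, a grainyhead-related factor, by 1.88 (adjusted p = 1.24e-05). *Hopx*, a homeodomain protein of the type 1 cell, was lower at -1.41 (adjusted p = 0.000156), as was *Foxa1*, a forkhead factor that acts with NKX2-1, at -1.16 (adjusted p = 0.0042). The related *Foxa2* and *Gata6* had values only with marked spots kept, 0.31 (adjusted p = 0.00924) and 0.07 (adjusted p = 0.464). With marked spots kept for all, 13 genes had a value and the median was 0.70.

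Around *Etv5*, only 3 of 12 genes of FGF and ERK signalling were tested and 10 had a probe. *Spry4*, one of the inhibitors that ERK signalling induces, was called lower at -2.22 (adjusted p = 6.74e-06), while *Fgfr3*, a receptor, rose by 0.39 (adjusted p = 0.00515). *Etv1*, from the same ETS subfamily as *Etv5*, had a value only with marked spots kept and was lower at -2.35 (adjusted p = 6.38e-06). Under the same setting *Dusp6*, an ERK phosphatase that ERK signalling induces, rose by 0.32 (adjusted p = 0.00606), and *Spry2*, related to *Spry4*, did not pass the test (0.06, adjusted p = 0.461). The 6 genes with a value then had a median of 0.19. The ligands *Fgf7* and *Fgf10* were not well above background in any lung sample.

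Most of the type 1 alveolar cell markers tested fell in the tumors. Of 14 such genes, 13 had a probe, and of the 10 tested 8 fell, 6 of them called, and 2 rose, 0 of them called, with a median log2 fold change of -1.39. The lowest were *Akap5*, a kinase anchoring protein, at -2.33 (adjusted p = 4.83e-06), *Cav1*, caveolin 1, at -2.33 (adjusted p = 2.5e-05), and *Sema3e* at -2.10 (adjusted p = 0.00051). *Ager*, a receptor that is a standard type 1 marker and was picked after its values were seen, was at -1.37 (adjusted p = 5.11e-05). *Cldn18*, a claudin of both alveolar cell types, rose by 0.52 (adjusted p = 0.00193). *Rtkn2*, the other gene counted as a rise, was not well above background on any normal array and passed the filter only through the tumor arrays. Against the lowest signal well above background, its tumor level was 0.91-fold, so no rise is shown for it. Without *Rtkn2*, 8 of 9 fell, 6 of them called, 1 rose and the median was -1.41. *Cav1* and some others are made by endothelium as well.

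**Figure D3:**
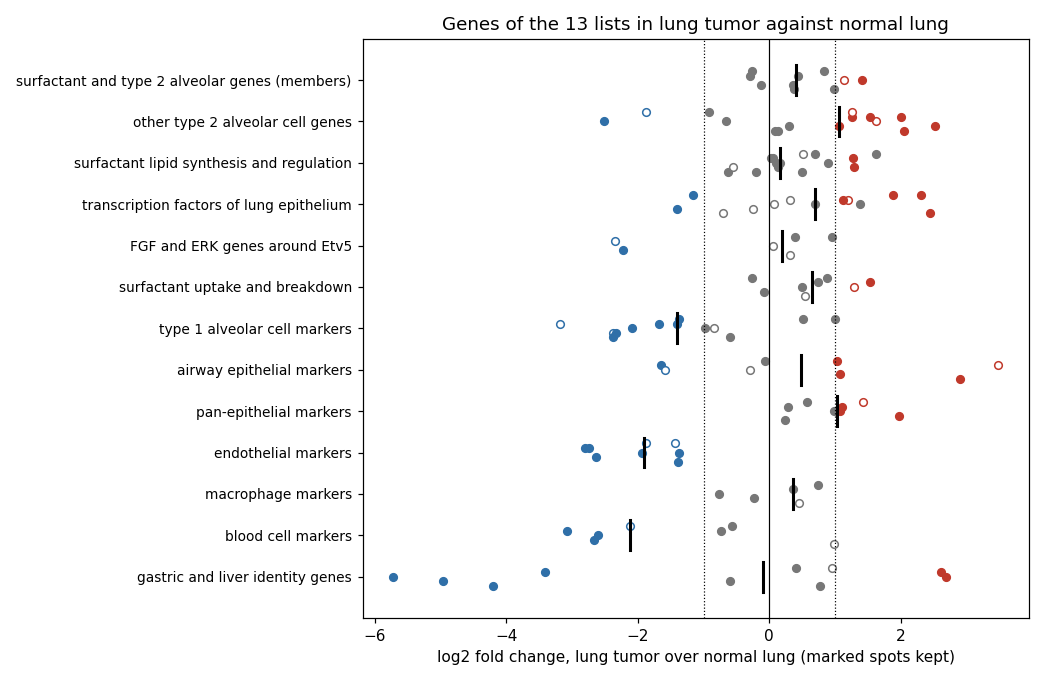
Log2 fold change of lung tumor over normal lung for the measured genes of the 10-gene list and 12 further lists, with marked spots kept (open points: genes that had no value with these spots left out; red and blue: at least 2-fold higher or lower with an adjusted p of at most 0.05; black bars: list medians). The 10 genes lie between -0.30 and 1.41, the type 1 and endothelial genes lie mostly below -1, and 8 of the other type 2 genes lie above 1.

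Markers of other cells moved with these changes, and their part in the values of the 10 genes was not tested. Over the 10 genes, the summed signal on the unlogged scale ran from 1222800 to 1284300 on the normal arrays and from 1507160 to 1573460 on the tumor arrays, dominated by the brightest probes. For type 1 markers the sum was 1567850 to 1619920 in normal lung and 623380 to 654686 in tumor. This sum and those of the other lists take every gene with a probe, also those not tested, with marked spots kept. For endothelial markers, with 9 of 12 genes on a probe, all 6 tested were called lower, led by *Sox17*, *Tek* and *Ramp2* at -2.81, -2.74 and -2.64 (largest adjusted p = 0.000539), and the sum was 366765 to 373589 in normal lung and 70771.8 to 71280.8 in tumor. *Cdh5*, a defining endothelial cadherin, was not well above background in any lung sample. Whether the probes of such genes, *Marco* among them, detect their transcripts was not tested, so the missing signal does not show that the transcripts were absent. For pan-epithelial markers, 9 of 10 genes had a probe and all 7 tested rose, 3 of them called, with *Krt18* at 2.00, *Esrp1* at 1.11 and *Krt8* at 1.07 (largest adjusted p = 0.000704). Their sum was 284682 to 290064 in normal lung and 428130 to 441255 in tumor.

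For airway epithelium, 8 of 12 markers had a probe, and of 5 tested 3 were called higher and 1 lower. *Bpifa1*, a secreted airway protein, was higher at 2.90 (adjusted p = 4.18e-06), *Cyp2f4* at 1.08 and *Tp63* at 1.03, and *Tppp3*, of ciliated cells, was lower at -1.65 (adjusted p = 5.59e-05). *Scgb1a1*, the club cell secretoglobin, did not pass the test (-0.07, adjusted p = 0.456). With marked spots kept, 4 of 8 markers were called higher and 2 lower, with a median of 0.48. The added calls were *Scgb3a1* at 3.48 (adjusted p = 3.14e-05) and *Cyp4b1* at -1.58 (adjusted p = 5.29e-05). The airway sum was 578171 to 623873 in normal lung and 473960 to 507590 in tumor.

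For macrophages, 8 of 10 markers had a probe and none of the 4 tested was called. *Mrc1*, the mannose receptor, rose by 0.36 (adjusted p = 0.00452), *Csf1r* fell by 0.77 (adjusted p = 0.000215) and *Adgre1* fell by 0.23 (adjusted p = 0.0102), while neither *Marco* nor *Cd163* stood well above background in lung. The macrophage sum was 159695 to 169655 in normal lung and 169555 to 196830 in tumor. For blood cells, 7 of 11 markers had a probe and all 5 tested fell, 3 of them called or 2 of 4 without *Ppbp*, which passed the filter only through the normal arrays, with *Alas2*, of red cell heme synthesis, at -3.09 (adjusted p = 3.58e-06). With marked spots kept, 7 blood cell markers had a value, and 0 were called higher and 4 lower. Of those added, *Pf4* rose by 0.98 (adjusted p = 0.000203) and *S100a8* was at -2.12 (adjusted p = 1.91e-05). The blood cell sum was 232117 to 240029 in normal lung and 143873 to 150482 in tumor.

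With the near-identical arrays counted once, fewer genes of these lists passed the threshold, and so did fewer of all probes. This leaves 1 normal sample, so only the medians of the log2 fold changes are given. They were 0.63 for the other type 2 genes, 0.18 for lipid synthesis, 0.62 for uptake and breakdown and 1.13 for transcription factors. For FGF and ERK genes the median was 0.40, for airway markers 1.08 and for pan-epithelial markers 1.00. It was -1.40 for type 1, -2.23 for endothelial and -2.57 for blood cell markers, and 0.07 for macrophage markers. These medians, and the counts that leave out a gene above background in 1 group only, were chosen after seeing the data.

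On the blood arrays the question was whether signal of these genes is found in circulating blood and differs after NNK. The clots held blood, with *Hbb* at processed signals of 658487 and 659641 and all 7 blood cell markers well above background on both arrays. Of the 10 genes, 7 were well above background in control blood and 9 in NNK blood, against 60.3% and 61.6% of all mRNA probes. With 1 array per group there was no replicate check and no test.

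All surfactant protein genes but *Sftpd* had processed signals below 100 in blood. That of *Sftpa1* was 28.1 in control and 73.8 in NNK blood, well above background on both arrays. That of *Sftpb* was 10.52, not well above background, and 34.29. *Sftpc*, the most restricted type 2 transcript, was not well above background on either blood array, at 2.43 and 7.44. *Sftpd* was brighter, at 509.3 and 403.8. The NNK array was brighter as a whole, with a 75th percentile of 205.8 against 95.4, so the differences below are of values quantile-normalized over the 2 arrays.

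After normalization, of the 9 genes well above background on at least 1 blood array, 2 were higher in NNK blood by 2-fold or more and 1 was lower by as much, against 23.1% and 19.1% of the 14452 probes compared. *Lpcat1* went from 49.2 to 329.9 in processed signal, a log2 difference of 1.62, and *Napsa* from 2619 to 8733, a log2 difference of 1.53. *Sftpd* was lower by a log2 difference of -1.16. The median difference of all probes was -0.11. Of the rest, *Lamp3*, not well above background in control blood at 11.05, was 46.59 in NNK blood and at least 1.46-fold higher, *Slc34a2* went from 157.8 to 214.9 and *Etv5* from 125.0 to 174.1, with log2 differences of -0.61 for both after normalization. With a 75th percentile shift the difference of *Napsa* was 0.63, under 2-fold, and that of *Nkx2-1* -1.11.

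*Nkx2-1* gave bright signal in blood. Its processed signal was 42260 in control and 42192 in NNK blood, a log2 difference of -0.10. Normalized over all 8 arrays, its log2 level was 16.79 in normal lung on average and 16.60 in control blood, a difference of 0.19, while *Sftpa1* differed by 12.22 between the same arrays. *Sftpb*, *Sftpc* and *Lamp3* were not well above background in control blood and differed by at least 12.95, 9.67 and 11.15. *Napsa* differed by 1.99 and *Slc34a2* by 2.87. The array held no other probe for *Nkx2-1*, so whether the signal of this probe, in blood or in lung, is that transcript was not tested.

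**Figure D4:**
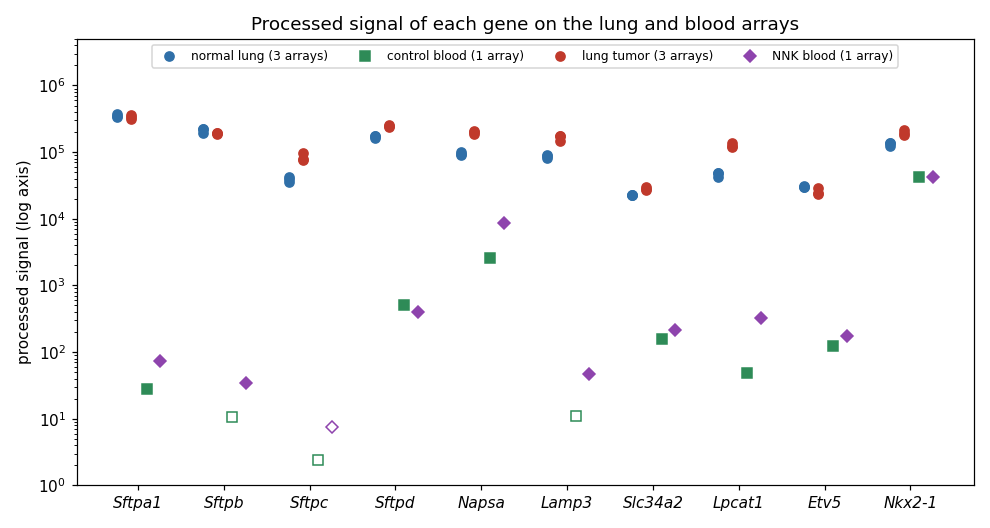
Processed signal of each gene before normalization between arrays, on a log axis, on the 3 normal lung, 3 lung tumor and 2 blood arrays (open symbols: not well above background). *Sftpa1*, *Sftpb*, *Sftpc* and *Lamp3* are below 100 on both blood arrays, whereas *Nkx2-1* is at 42260 and 42192.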

How the data were processed

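RNA from 3 lung tumors, 3 matched normal lung tissues and 2 blood clots was measured on the 1-colour Arraystar rat lncRNA array. Per the file headers, the authors deposited spot intensities from Agilent Feature Extraction 10.5.1.1: a background-subtracted processed signal, median signals, and marks for outliers and for signal well above background. The authors also deposited log2 values, quantile-normalized over all 8 arrays in GeneSpring. The NNK blood sample carried a lung tumor's description, and was taken as blood from its other labels, title and tissue among them.

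With R 4.3.3 and limma 3.58.1, the processed signals were put on the log2 scale and quantile-normalized, lung (6 arrays) and blood (2) apart, and in lung, outlier-marked spots were left out. Probes well above background on at least 3 lung arrays (15803) and measured on at least 2 arrays per group were fitted by group, which left 12471, with Benjamini-Hochberg adjustment and two-sided tests. A call needed 2-fold and an adjusted p of at most 0.05. Where a group was below background on every array, the fold is a bound against the lowest signal well above background. Blood was compared by fold alone. The array design names 15323 mRNA probes, of which 14274 (93.2%) were named through RefSeq transcripts of GRCr8. Where a gene had several probes, the brightest tested one was taken.

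The 10 genes are all named. Of the other lists, at most the 3 largest rises and falls past the adjusted threshold are named. Also named are some genes with a value only with marked spots kept, and genes whose absence from the calls is described. The genes and lists were chosen with earlier results of these data known. The methods describe the tumors and normal tissues as matched. Same-numbered arrays deviated from their group means with correlations of 0.143, -0.041 and 0.16 over 11359 probes. The fit was tested on simulated data. Alternatives changed the normalization, background correction (normexp, offset 50), floor (5), filters, marked spots, the test (the methods' t-test and its paired form), the blocks, and the arrays used. For the gene lists, counting near-identical arrays once and leaving out genes above background in 1 group only were chosen after seeing the data. Precision is limited by the number of arrays. The scanner software marked no spot as saturated. On the NNK blood array *Hbb* and *Alas2* had nearly the same processed signal, 659641 and 659642, and whether this is a ceiling was not tested.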

Additional observations from a re-analysis of the deposited data

How the results depend on the processing

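Over 19 alternatives, the rise of *Lpcat1* kept its direction and its side of the threshold in all, and those of *Sftpc*, *Sftpd*, *Napsa*, *Lamp3*, *Slc34a2* and *Nkx2-1* in 18, the exception being the near-identical arrays counted once. *Sftpa1* missed the threshold under 10 and *Sftpb* under 4. The fold change of *Etv5* reversed to 0.0035 with the slide as a block. The cause of these moves was not tested.

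The 2 genes lower at the adjusted threshold became 1 with a 75th percentile shift, with normexp and with the authors' normalized values, and 0 with the methods' paired t-test, with the slide as a block and with near-identical arrays counted once, and 0 to 3 with 1 array left out. The 7 genes higher, *Sftpc* included, became 1 with near-identical arrays counted once, where 4 had an unadjusted p under 0.05. The 2 genes called higher, *Sftpc* included, became 3 with the 75th percentile shift, 4 with quantile normalization over all 8 arrays and with the authors' values, 1 with near-identical arrays counted once, and 2 to 3 with 1 array left out. None of the 10 genes was called lower under any alternative. Over all probes, 1683 called higher and 1929 lower became 968 and 1256 with normexp and 778 and 976 with near-identical arrays counted once, and the methods' paired t-test called 1090 higher.

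The replicate block and the paired t-test assume that same-numbered tissues are a pair, which the labels do not state. With the replicate block, *Lpcat1* was at 1.41 (adjusted p = 0.00119), *Sftpa1* at -0.26 (adjusted p = 0.0452) and *Sftpb* at -0.30 (adjusted p = 0.035). Under it 7 genes were higher and 2 lower, and no call among the 10 genes changed.

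In blood, the 1 gene at least 2-fold lower became 2 with the 75th percentile shift (*Nkx2-1* added), with quantile normalization over all 8 arrays and with the authors' values (*Etv5* added), and the 2 higher became 1 with the 75th percentile shift. In the authors' values the count stayed at 2, but *Napsa* was under 2-fold at 0.96 and *Lamp3* past it at 1.13. Low signals in blood limit what can be said of *Sftpa1*, *Sftpb*, *Sftpc* and *Lamp3* there.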

Other observations

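Genes of stomach and liver identity, which some lung adenocarcinomas express when NKX2-1 is lost, were read as well. Of 14, 13 had a probe and 9 were tested, with 2 called higher and 4 lower in lung tumor and a median log2 fold change of -0.59. With marked spots kept the median over 10 genes was -0.09, the added gene being *Ctse*, a gastric protease, at 0.96 (adjusted p = 0.000506). Without *Foxa3*, which passed the filter on dim probes only through the tumor arrays, the median was -2.003 over 8 genes, with 1 called higher and 4 lower. With near-identical arrays counted once, the median over 9 genes was -0.52. *Lgals4*, a galectin of the gut, was higher at 2.69 (adjusted p = 2.78e-05), and *Foxa3*, not well above background on any normal array, was on all 3 tumor arrays, at least 1.54-fold higher. *Gkn2*, a gastrokine, rose by 0.77 (adjusted p = 0.000429), and the related *Gkn1* did not pass the test (-0.59, adjusted p = 0.127). The 4 genes called lower were all transcripts of secreted liver proteins, the lowest being *Ttr*, *Fga* and *Ahsg* at -5.73, -4.97 and -4.20 (largest adjusted p = 7.59e-06). The medians of this list mix these liver genes with the gastric and gut genes, none of which was called lower. *Hnf4a* did not pass the test (0.41, adjusted p = 0.104), and neither *Tff1* nor *Tff2* was well above background in lung.

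Besides *Nkx2-1*, other genes known from epithelium gave bright signal in the blood clots. The processed signal of *Cldn18* was 10854 in control and 9603 in NNK blood, that of *Krt19* was 10589 and 10433, that of *Esrp1* was 11987 and 10296 and that of *Elf3* was 6272 and 7796. On the same arrays *Krt18*, *Aqp5*, *Scgb3a2* and *Foxa2* were not well above background. These genes are only some of their lists. Of 9 pan-epithelial markers, 4 were well above background in control and 8 in NNK blood, of 13 type 1 markers 7 and 6. Of 8 airway markers they were 4 and 5, and of 14 transcription factors 7 and 6. Over all mRNA probes the shares were 60.3% and 61.6%. With 1 array per group these differences were not tested.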
